A study of Mus musculus with 6 samples.

Results

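Aqp1, Slc6a4, Anpep, Adgre5, Kirrel3, Myof and Plxna2 are 7 protein-coding genes for membrane proteins, taken by gene name from the 54532 genes of the deposited tables. They were selected on the measured fold change in these same libraries: each was lower in RAW264.7 macrophages labelled ERMAP shRNA than in control RAW264.7. Their fold changes in that comparison are therefore a description and are not given as tests. RAW264.7 is an established mouse macrophage-like line. Of 6 libraries, 3 have labels that give the genotype ERMAP Knockdown and the treatment shRNA, and 3 control libraries have the genotype WT and no treatment tag. The protocol text names an ERMAP-shRNA lentivirus for all 6 samples, so the labels do not settle whether the controls were transduced, and they describe no non-targeting shRNA. ERMAP is an erythroid membrane protein of the butyrophilin family, and the stated question of the series is which genes differ once it is knocked down. No label states that replicates came from separate cultures, so the errors and p-values given here describe library-to-library spread, part or all of which may be technical.

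The 7 proteins have different jobs at the cell membrane. Aquaporin 1 is a water channel, and the Slc6a4 product is the serotonin transporter, which carries serotonin back into cells and is the target of a widely used class of antidepressants. Anpep encodes aminopeptidase N, known as CD13, an enzyme on the outer face of myeloid and epithelial cells that trims the ends of peptides. Adgre5 encodes CD97, an adhesion G protein-coupled receptor of leukocytes, and Kirrel3 an immunoglobulin-type adhesion molecule of the nephrin family, known from synapses. Plexin A2 is a semaphorin receptor. Myoferlin is a ferlin, a calcium-binding protein of membrane fusion and repair that is anchored in the membrane with most of its mass in the cytosol, so the name surface protein is loose for it. RNA alone was measured, and protein at the surface was not.

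The promoter windows are shown so that a reader can compare the sequence in front of a few of the members. The members were chosen for being lower, so their shared direction is no sign of joint control. Whether the motifs bear on their levels was not tested. RefSeq windows on build GRCm38.p6, from 250 bases before to 50 bases after the start, were matched by symbol for 5 of the 7 genes, namely Aqp1, Slc6a4, Anpep, Myof and Plxna2. Printed here, 5′ to 3′ on the gene's own strand, are Aqp1 (chr6:55336049-55336348, plus strand) and Slc6a4 (chr11:76998347-76998646, plus strand), which had the lowest levels relative to control of the 5, and Myof (chr19:38043528-38043827, minus strand), the most abundant. Capitals mark exact matches, on either strand, to 6 short motifs that were searched.
Aqp1: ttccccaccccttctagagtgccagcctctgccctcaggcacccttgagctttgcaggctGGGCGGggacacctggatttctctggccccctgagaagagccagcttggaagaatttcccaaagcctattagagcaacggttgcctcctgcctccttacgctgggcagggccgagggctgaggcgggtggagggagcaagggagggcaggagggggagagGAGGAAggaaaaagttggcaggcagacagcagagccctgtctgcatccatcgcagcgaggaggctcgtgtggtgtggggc
Slc6a4: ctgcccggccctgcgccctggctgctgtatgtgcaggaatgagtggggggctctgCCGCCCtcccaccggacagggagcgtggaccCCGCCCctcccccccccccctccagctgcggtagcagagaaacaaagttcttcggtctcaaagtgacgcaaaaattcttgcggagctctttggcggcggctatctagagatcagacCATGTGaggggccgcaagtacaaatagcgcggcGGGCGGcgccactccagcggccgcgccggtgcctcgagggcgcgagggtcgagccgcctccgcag
Myof: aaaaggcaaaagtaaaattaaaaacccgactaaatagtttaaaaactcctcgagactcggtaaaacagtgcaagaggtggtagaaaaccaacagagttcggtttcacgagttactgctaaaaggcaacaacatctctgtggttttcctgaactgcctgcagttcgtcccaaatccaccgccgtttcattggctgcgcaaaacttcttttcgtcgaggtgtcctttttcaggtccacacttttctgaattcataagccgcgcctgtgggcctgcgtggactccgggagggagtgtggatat
The motifs were the AP-1 site TGANTCA, the PU.1 core GAGGAA, the E-box CACGTG, the M-box CATGTG, the GC box GGGCGG and the TATA box TATAAA, where N stands for any base. The GC box was found in 4 of the 5 windows (Aqp1, Slc6a4, Anpep and Plxna2) and in 35.6% of all 32817 RefSeq promoter windows of 300 bases. Aqp1 held 1 PU.1 core, a motif in 28.3% of all windows, and Slc6a4 held 1 M-box, a motif in 14.2%. The Myof window held no match to any of the 6, and neither an AP-1 site, an E-box nor a TATA box was found in the 5 windows, against 7.8%, 7.1% and 13.6% of all windows. The letters G and C made up 62.7% of the Aqp1 window, 67.7% of Slc6a4, 72.3% of Anpep, 64.7% of Plxna2 and 46.3% of Myof, where the median window had 52.7%. A match is a run of letters, not a binding site, and the RefSeq starts used for Anpep and Plxna2 lie 12849 and 1611 bases inside the gene as the deposited table draws it.

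Each library held 13447021 to 16602734 counts, and 12491 genes, all 7 members included, passed the filter on low counts. Ermap itself was counted 10, 21 and 14 times in the libraries labelled ERMAP shRNA, against 12, 12 and 3 times in control, so the label was not matched by a lower Ermap level (log2 fold change 0.81, SE 0.52, edgeR adjusted p = 0.929). Its 95% interval ran from -0.39 to 2.03, and counts this low cannot settle whether Ermap RNA was reduced. CPM is a count scaled to the library total. The 8 macrophage markers summed to 6857 to 6981 CPM in the libraries labelled ERMAP shRNA and 6905 to 7161 CPM in control. edgeR called 0 of 8 at an adjusted p under 0.05, where 1.14% of all genes tested were called, and DESeq2 called 0. At an unadjusted p under 0.05, 1 was lower in edgeR, where 3.04% of all genes tested were. Control replicate 1 stood apart, with 3.69% of its counts from mitochondrial genes against 1.71% to 2.18% in the other 5 libraries. Its deviation from the other controls ran against transcript GC content, with a Spearman rho of -0.818 across genes, which are not independent replicates. Replicate 2 of the libraries labelled ERMAP shRNA also ran against GC content within its group (rho -0.55), where replicates 1 and 3 had 0.301 and 0.395. The counts that changed most when control replicate 1 was left out are given with and without it.

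All 7 genes were lower in the libraries labelled ERMAP shRNA, with no overlap between the groups in any of them. Levels fell to 33.4% of control for Kirrel3, 34.7% for Slc6a4 and 36.1% for Aqp1, and to 53.0% for Adgre5, 53.2% for Anpep, 55.5% for Plxna2 and 62.5% for Myof. Among all 12491 genes, 0.136% were called lower (edgeR quasi-likelihood test, adjusted p under 0.05), 17 genes in all, 1.14% were called in either direction, and 6.47% were lower with no overlap. Nothing is read from these counts, since the comparison chose the members. In bulk RNA, fewer cells that express a gene and less RNA per cell cannot be told apart.

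**Figure D1:**
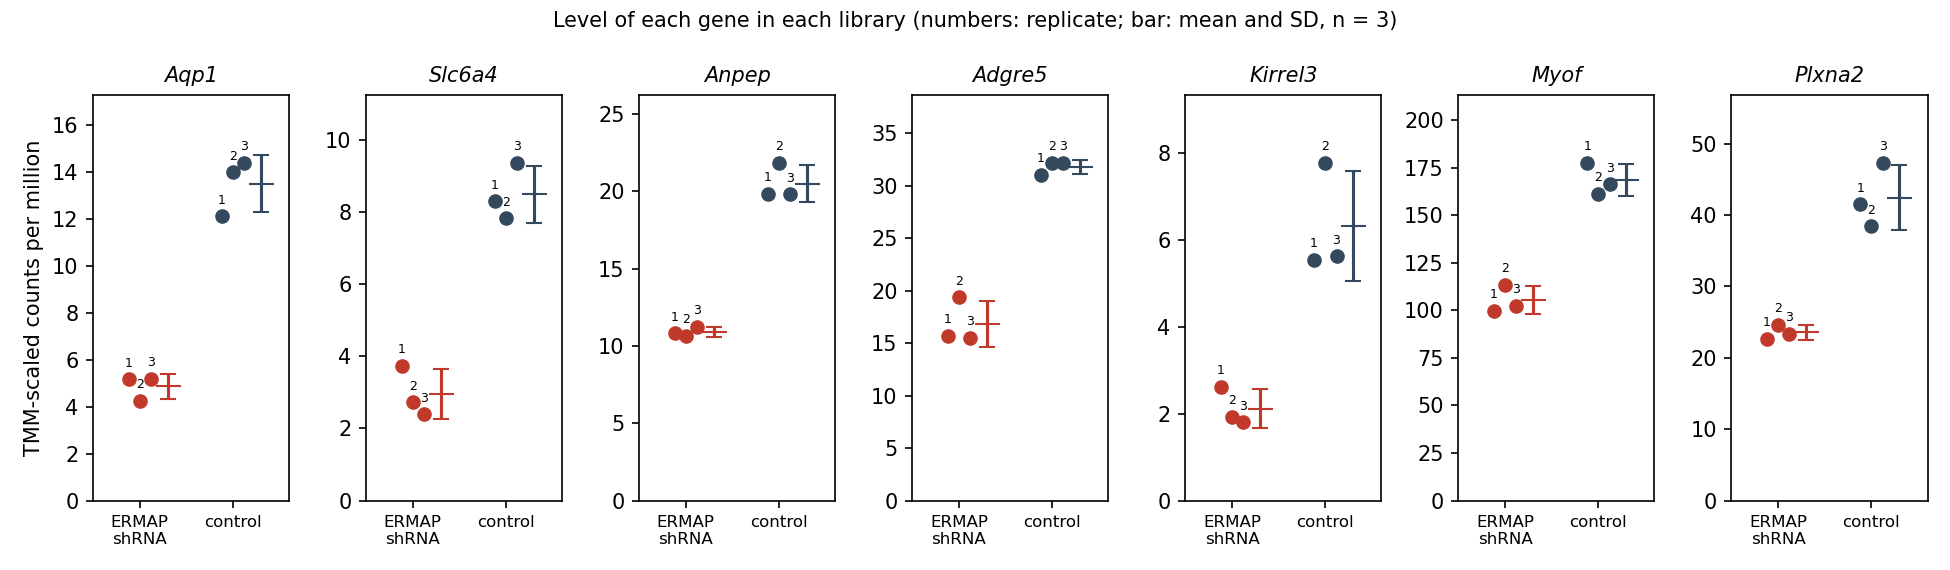
Level of each of the 7 genes in each library, in TMM-scaled CPM on a linear axis that starts at 0, with the libraries labelled ERMAP shRNA left of control. Points are libraries numbered by replicate, and bars are the mean and SD of 3. In each panel all 3 points of the group labelled ERMAP shRNA lie below all 3 control points.

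Aqp1, the water channel (ENSMUSG00000004655, chromosome 6, 55336432 to 55348555 on the plus strand of mm10), had 5.16, 4.26 and 5.19 CPM in the libraries labelled ERMAP shRNA, against 12.1, 14.0 and 14.4 CPM in control. The highest library labelled ERMAP shRNA lay below the lowest control, which was control replicate 1. Its fitted log2 fold change came to -1.47 (SE 0.16, 95% interval -1.84 to -1.10). These levels rest on 64 to 78 counts per library labelled ERMAP shRNA and 175 to 232 per control. The spread of Aqp1 was close to counting error alone: its coefficient of variation was 10.8% in the libraries labelled ERMAP shRNA, where counting error gives 11.9%, and 9.04% in control, where it gives 6.93%.

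Slc6a4, the serotonin transporter (ENSMUSG00000020838, chromosome 11, 76998603 to 77032340, plus strand), had 3.74, 2.73 and 2.40 CPM in the libraries labelled ERMAP shRNA, against 8.30, 7.83 and 9.38 CPM in control. Replicate 1 was the highest of the labelled group and still below every control. Its log2 fold change was -1.53 (SE 0.21, 95% interval -2.02 to -1.04). With 36 to 50 counts per library in the labelled group, Slc6a4 is one of the less precisely measured members.

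Kirrel3, the nephrin-family adhesion molecule (ENSMUSG00000032036, chromosome 9, 34485894 to 35036716, plus strand), was the least abundant. It had 2.62, 1.93 and 1.80 CPM in the libraries labelled ERMAP shRNA, against 5.53, 7.77 and 5.61 CPM in control. Control replicate 2 was the high one, and the other controls were close to each other. This gave a log2 fold change of -1.58 (SE 0.24, 95% interval -2.15 to -1.02), from 27 to 35 counts per library labelled ERMAP shRNA. Its antisense gene Kirrel3os had 0 counts in all 6 libraries, and each of 3 other genes inside it had at most 1 count.

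Anpep, aminopeptidase N (ENSMUSG00000039062, chromosome 7, 79821803 to 79861059, minus strand), had 10.8, 10.6 and 11.2 CPM in the libraries labelled ERMAP shRNA, against 19.8, 21.9 and 19.8 CPM in control. Both groups were tight, with coefficients of variation of 2.80% in the labelled group and 5.72% in control, no wider than counting error gives in the labelled group (7.96%) and about as wide in control (5.62%). The resulting log2 fold change was -0.91 (SE 0.12, 95% interval -1.19 to -0.63).

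Adgre5, the adhesion receptor CD97 (ENSMUSG00000002885, chromosome 8, 83723251 to 83741326, minus strand), had 15.7, 19.4 and 15.5 CPM in the libraries labelled ERMAP shRNA, against 31.1, 32.2 and 32.2 CPM in control. The spread lay in the labelled group, where replicate 2 was the high one, while the controls differed by about 1 CPM. Its log2 fold change came to -0.92 (SE 0.13, 95% interval -1.21 to -0.62). Adgre5 overlaps the end of Ddx39, an RNA helicase gene on the opposite strand, by 3642 bases. Ddx39 had 18376 counts over the 6 libraries, and the strand setting of the counting is not given in the sources used here, so reads from the overlap cannot be told apart. Ddx39 itself averaged 209 CPM in the libraries labelled ERMAP shRNA and 200.2 CPM in control (log2 fold change 0.06, SE 0.09, edgeR adjusted p = 0.949).

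Plxna2, the semaphorin receptor (ENSMUSG00000026640, chromosome 1, 194618218 to 194816869, plus strand), had 22.6, 24.6 and 23.4 CPM in the libraries labelled ERMAP shRNA, against 41.5, 38.4 and 47.3 CPM in control. Here the spread lay in the controls, where replicate 3 was high, with a coefficient of variation of 10.7% in control and 4.27% in the labelled group. This is a log2 fold change of -0.85 (SE 0.12, 95% interval -1.12 to -0.58).

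Myof, myoferlin (ENSMUSG00000048612, chromosome 19, 37899036 to 38043577, minus strand), was the most abundant member and had the smallest relative difference. It had 99.7, 114 and 103 CPM in the libraries labelled ERMAP shRNA, against 178, 162 and 166 CPM in control. In log2 units the fitted difference was -0.68 (SE 0.10, 95% interval -0.90 to -0.46). With 1335 to 2682 counts per library, counting error is 2.56% in the labelled group and 1.96% in control, and the observed coefficients of variation, 6.95% in the labelled group and 4.97% in control, exceed it. In absolute terms Myof had the largest difference per length of the 7, 8.31 ± 0.59 FPKM in the libraries labelled ERMAP shRNA and 13.2 ± 0.62 FPKM in control (mean ± SD, n = 3 each).

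**Figure D2:**
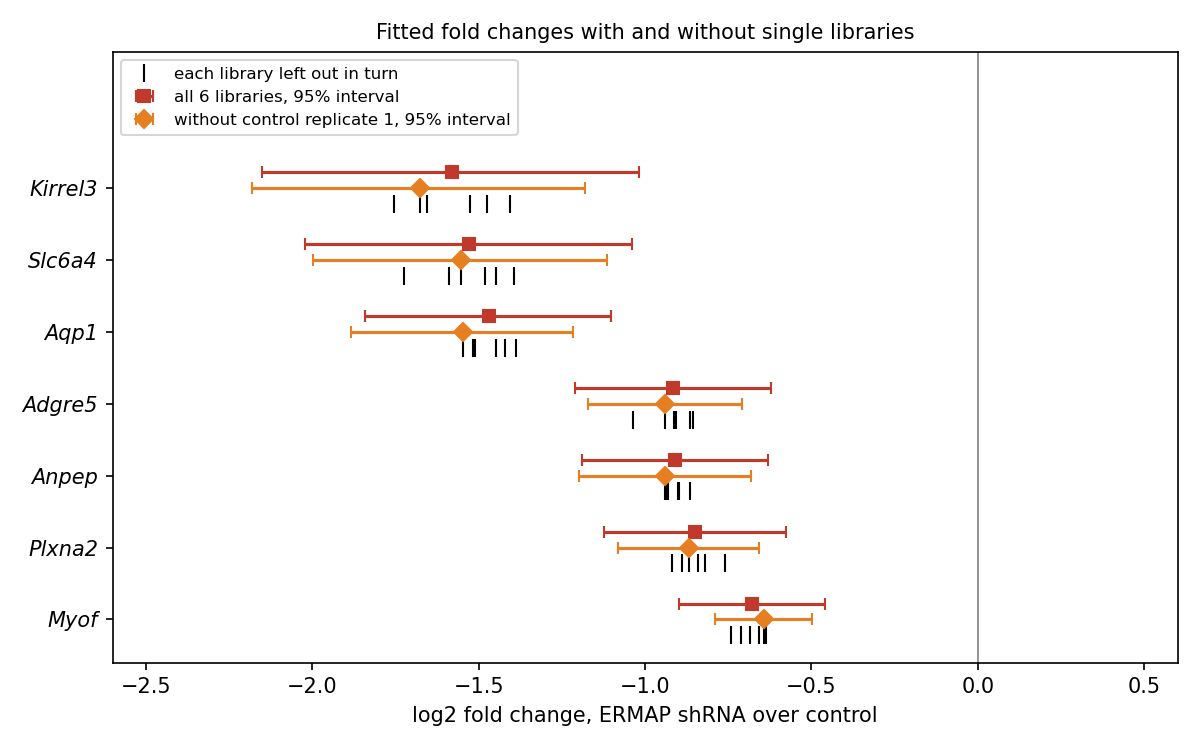
Fitted log2 fold changes of the 7 genes, libraries labelled ERMAP shRNA over control, ordered by size. Squares are the fit to all 6 libraries and diamonds the fit without control replicate 1, both with 95% intervals, and ticks are the fits that leave out each library in turn. Every interval and tick lies below 0, from -0.46 (upper bound of Myof) downwards.

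Per length of transcript, in the deposited FPKM (counts scaled by gene length and library total), the members spanned more than an order of magnitude, and the order of their levels was almost the same in both groups. In the libraries labelled ERMAP shRNA the order was Myof, Adgre5 (4.46 ± 0.58 FPKM), Anpep (2.62 ± 0.075), Aqp1 (1.84 ± 0.20), Plxna2 (1.36 ± 0.061), Slc6a4 (0.648 ± 0.15) and Kirrel3 (0.326 ± 0.067; mean ± SD, n = 3). In control it was Myof, Adgre5 (8.39 ± 0.21 FPKM), Aqp1 (5.09 ± 0.48), Anpep (4.91 ± 0.29), Plxna2 (2.45 ± 0.27), Slc6a4 (1.86 ± 0.18) and Kirrel3 (0.968 ± 0.20; mean ± SD, n = 3). Only Aqp1 and Anpep changed places. In the libraries labelled ERMAP shRNA every Aqp1 value (1.61 to 1.97 FPKM) lay below every Anpep value (2.56 to 2.71 FPKM), while in control Aqp1 (4.55 to 5.44 FPKM) and Anpep (4.74 to 5.24 FPKM) overlapped. Against all tested genes the levels were low to middling, from the 9.94th percentile of mean FPKM for Kirrel3 to the 61.5th for Myof. The 7 together summed to 19.6 ± 0.90 FPKM in the libraries labelled ERMAP shRNA and 36.9 ± 0.55 FPKM in control (mean ± SD, n = 3 each), with Myof and Adgre5 making up most of both sums.

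**Figure D3:**
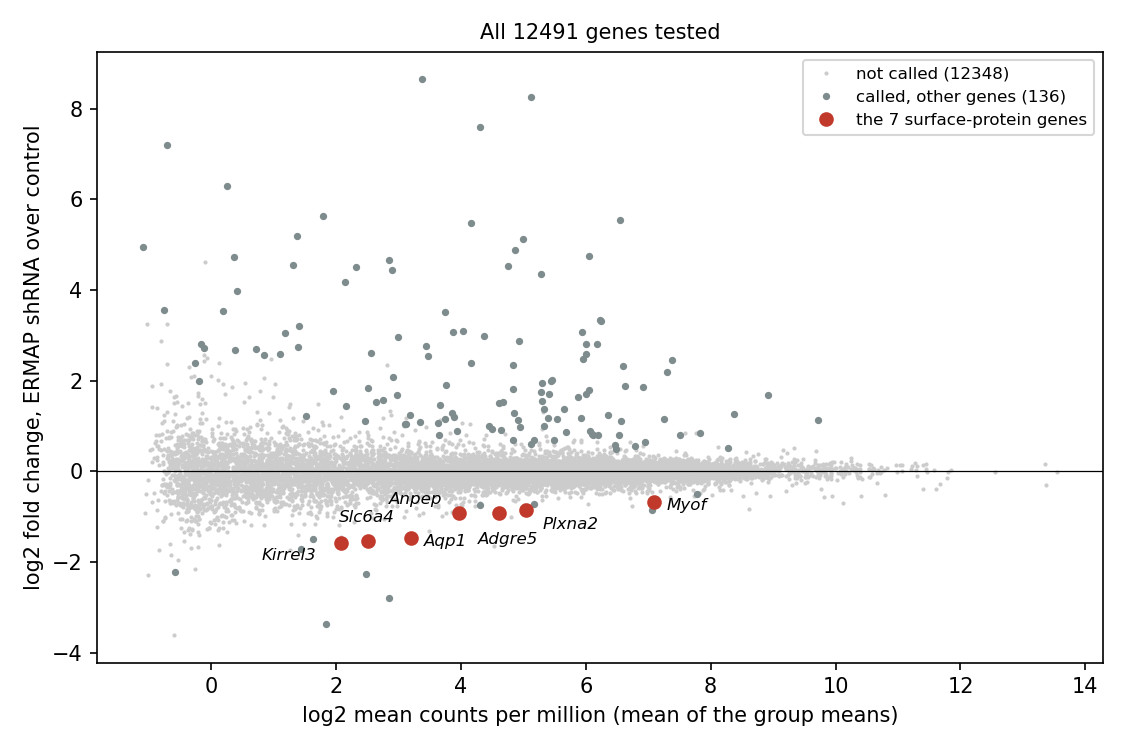
Log2 fold change against log2 mean CPM for all 12491 genes tested, libraries labelled ERMAP shRNA over control. Grey points are genes that were not called, darker points the other 136 called genes, and red points the 7 members. The members, which were chosen for being lower, lie below 0 over a wide range of levels. Genes that were not called reach as low as -3.61, and most called genes lie above 0.

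Fits that leave out 1 library use the values that chose the members, so the calls in them describe these libraries and nothing is read from them. Aqp1 was called in all 6 of these fits, with log2 fold changes from -1.55 to -1.39. Without control replicate 1, all 7 members were called lower, where 2.19% of all genes tested were called lower and 2.67% higher. The values then were -1.68 for Kirrel3, -1.55 for both Slc6a4 and Aqp1, -0.94 for both Anpep and Adgre5, -0.87 for Plxna2 and -0.64 for Myof. Without control replicate 2, Adgre5 and Kirrel3 lost their calls. Without control replicate 3 or labelled replicate 3, Aqp1 alone was called. Without labelled replicate 1, Aqp1 and Slc6a4 were called, and without labelled replicate 2, Aqp1 and Adgre5. Across the 6 fits Kirrel3 ranged most widely, from -1.75 to -1.40.

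Each member was also lower without control replicate 1, but the members were chosen on these libraries, so nothing is read from that. On the scale log2(CPM + 1), control replicate 1 lay 0.12 above the mean of the other controls for Myof. The transcripts of Myof have the lowest GC content of the 7 (47.8%). For the other 6, with GC contents of 50.9% to 55.6%, its deviation was negative: -0.04 for Plxna2 and Slc6a4, -0.05 for Adgre5, -0.07 for Anpep, -0.21 for Aqp1 and -0.22 for Kirrel3. With per-library offsets for GC content, all 7 were called lower, where 1.03% of all genes tested were called lower and 2.03% higher.

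The relatives and partners of the 7 genes were listed to see whether whole families moved. Of 177 listed genes in the tables, 67 passed the filter, and edgeR called 0 higher and 0 lower, where 1.01% and 0.136% of all genes tested were called higher and lower. Without adjustment, 5 of the 67 were higher and 7 lower at p under 0.05, where 3.71% and 3.04% of all genes tested were. Without control replicate 1, edgeR called 4 of the relatives higher and 7 lower, where 2.67% and 2.19% of all genes tested in that fit were. DESeq2 called 1 higher and 4 lower, where it called 1.23% and 0.378% of all genes it tested. These shares hold for each list below as well. With 1 to 15 genes tested per list, a count of 0 called is close to them and does not show that a list was unchanged. The median log2 fold change of the 67 was 0.00, with 33 above and 34 below 0, and that of all genes tested was -0.01. A further 73 of the 177 had no count in any library, which allows up to 3 counts over the 6 libraries, or 0.0334 CPM, each (counting error only).

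**Figure D4:**
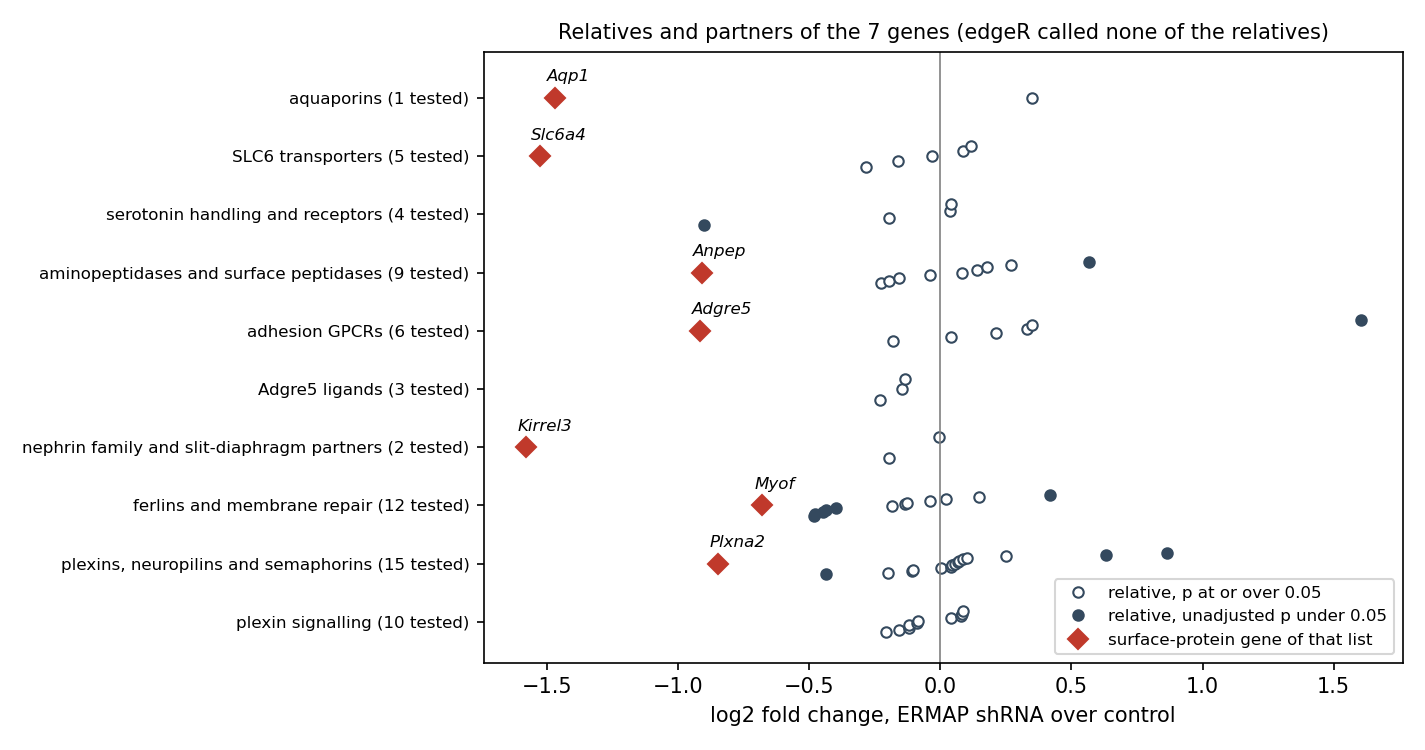
Log2 fold changes, libraries labelled ERMAP shRNA over control, of the tested relatives and partners in 10 lists, with the member that heads a list, in 7 of the 10, as a red diamond. Filled circles had an unadjusted p under 0.05 and open circles did not. edgeR called 0 of the 67 relatives, and 5 of the 12 tested genes of the ferlin and membrane repair list are filled circles below 0.

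Around Aqp1, no other water channel was present at a comparable level. Aqp11, an intracellular aquaporin, was the only other member tested, at 0.224 FPKM in the libraries labelled ERMAP shRNA and 0.175 FPKM in control (log2 fold change 0.35, SE 0.26, edgeR adjusted p = 0.937), and 7 of the 11 other aquaporins had no count. Aqp9, a water and glycerol channel named after its values were seen, had 18 counts over the 6 libraries.

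Around Slc6a4, 5 other SLC6 transporters were tested and 0 were called by edgeR, 0 at an unadjusted p under 0.05 and 0 by DESeq2. Of all genes tested, edgeR called 1.01% higher and 0.136% lower, so 0 of 5 is close to the shares over all genes. Slc6a12, a betaine and GABA transporter, was far more abundant, at 116 FPKM in the libraries labelled ERMAP shRNA and 130 FPKM in control (log2 fold change -0.16, SE 0.15, edgeR adjusted p = 0.937). Slc6a6, the taurine transporter, had 90.1 FPKM and 91.9 FPKM in the same groups (log2 fold change -0.03, SE 0.09, edgeR adjusted p = 0.963). Of 23 genes of serotonin handling and reception, 4 passed the filter, and edgeR and DESeq2 called 0. At an unadjusted p under 0.05, 1 was lower, where 3.04% of all genes tested were. Htr1b, a serotonin receptor, had 12.3 FPKM in the libraries labelled ERMAP shRNA and 14.0 FPKM in control, and Maoa, which breaks serotonin down, 5.68 FPKM and 5.52 FPKM. Slc18a2, the vesicular monoamine transporter, named after its values were seen, was counted 32, 31 and 27 times in the libraries labelled ERMAP shRNA and 92, 43 and 42 times in control (log2 fold change -0.90, SE 0.39, edgeR adjusted p = 0.737). Control replicate 1 alone was high there.

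Around Anpep, 9 other peptidases were tested and 0 were called, either by edgeR or by DESeq2. Before adjustment, 1 was higher in edgeR at p under 0.05, where 3.71% of all genes tested were. Rnpep, aminopeptidase B, had 23.8 FPKM in the libraries labelled ERMAP shRNA and 19.6 FPKM in control (log2 fold change 0.27, SE 0.12, edgeR adjusted p = 0.777). Npepps, a cytosolic aminopeptidase, had 19.0 FPKM and 21.2 FPKM (log2 fold change -0.16, SE 0.12, edgeR adjusted p = 0.937). Without control replicate 1, Erap1, which trims peptides for MHC class I, and Ece1, the endothelin-converting enzyme, were called higher. Their log2 values were 0.47 and 0.41 (edgeR adjusted p = 0.000288 and 0.0323), and both were named after their values were seen. That fit called 2.67% of all genes tested higher. With GC offsets Ece1 was called higher too (log2 fold change 0.49, edgeR adjusted p = 0.0163), where 2.03% of all genes tested were. Dpp4 and Mme, known as CD26 and CD10, had no count in any library.

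Around Adgre5, 6 other adhesion G protein-coupled receptors were tested and 0 were called by edgeR or DESeq2. In edgeR, 1 was higher at p under 0.05 before adjustment, where 3.71% of all genes tested were. Adgre1, the F4/80 antigen of macrophages, is of the same subfamily and had 35.7 CPM in the libraries labelled ERMAP shRNA and 40.5 CPM in control (log2 fold change -0.18, SE 0.13, edgeR adjusted p = 0.937). Adgrl1, a latrophilin, had 6.69 FPKM and 6.47 FPKM in the same groups (log2 fold change 0.04, SE 0.17, edgeR adjusted p = 0.972). Of the known ligands of CD97, Cd55 and Thy1 had no count in any library. Of the integrin chains on that list, Itgb1 had 53.3 FPKM in the libraries labelled ERMAP shRNA and 58.4 FPKM in control, and Itga5 17.3 FPKM and 19.0 FPKM, and edgeR called 0 of the 3 ligand genes tested, 0 at an unadjusted p under 0.05 and 0 in DESeq2.

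Around Kirrel3, its nearest relatives were not detected or nearly so at this depth: Kirrel and Nphs1 had no count in any library and Kirrel2 had 1. Cd2ap, an adaptor of the slit diaphragm, had 5.73 FPKM in the libraries labelled ERMAP shRNA and 6.54 FPKM in control, and Nck1, another adaptor, 3.99 FPKM in each. edgeR called 0 of these 2 tested partners, 0 at an unadjusted p under 0.05 and 0 in DESeq2.

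The membrane repair list around Myof held the relatives nearest to a call. Like the other lists, it was drawn up with earlier results of these data known, so its counts are a description. Of 12 tested genes edgeR called 0, but before adjustment 5 were lower and 1 higher at p under 0.05, where 3.04% and 3.71% of all genes tested were lower and higher. DESeq2 called 4 of the 12 lower, beside 0.378% of all genes it tested. With GC offsets 5 were called lower, beside 1.03% of all genes tested, and without control replicate 1 also 5, beside 2.19%. Ahnak, S100a10, S100a11 and Capn2 were in both, with Anxa1 in the set with GC offsets and Anxa6 in the set without control replicate 1 (names given after their values were seen). limma-voom and the fit with the replicate block called 0 of the 12. The median log2 fold change of the 12 was -0.16. The other ferlins were nearly silent, with no count for Dysf, Otof, Fer1l4 and Fer1l6, and Fer1l5 at 1.21 FPKM in the libraries labelled ERMAP shRNA and 1.19 FPKM in control.

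The 5 genes below 0 at that unadjusted threshold were Capn2, S100a11, S100a10, Ahnak and Anxa1, and the 1 above 0 was Ehd2 (log2 fold change 0.42), a membrane-remodelling ATPase of caveolae. Capn2, the calcium-activated protease calpain 2, had 103, 100.2 and 99.5 CPM in the libraries labelled ERMAP shRNA, against 134, 139 and 140 CPM in control. The groups of Capn2 did not overlap, and its log2 fold change was -0.45 (SE 0.08, edgeR adjusted p = 0.0527, and 0.00169 in DESeq2). S100a11, a calcium-binding partner of annexins, had 346, 369 and 348 FPKM in the libraries labelled ERMAP shRNA, against 447, 565 and 469 FPKM in control (log2 fold change -0.48, SE 0.11, edgeR adjusted p = 0.132, and 0.0205 in DESeq2). S100a10, the annexin A2 partner, and Ahnak, a giant scaffold protein, were named after their values were seen. Their log2 fold changes were -0.48 for S100a10 (SE 0.10, edgeR adjusted p = 0.0751, and 0.00286 in DESeq2) and -0.40 for Ahnak (SE 0.08, edgeR adjusted p = 0.0794, and 0.00332 in DESeq2). Without control replicate 1 the values were -0.47 for Capn2 and S100a10, -0.55 for S100a11 and -0.38 for Ahnak, with edgeR adjusted p from 1.53e-05 to 0.000125. Anxa5, annexin A5, overlapped between groups, at 373 FPKM in the libraries labelled ERMAP shRNA and 382 FPKM in control (log2 fold change -0.04, SE 0.09, edgeR adjusted p = 0.956).

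Around Plxna2, 15 other plexins, neuropilins and semaphorins were tested and edgeR called 0. Before adjustment 2 were higher and 1 lower in edgeR at p under 0.05, where 3.71% and 3.04% of all genes tested were. DESeq2 called 1 higher, where it called 1.23% of all genes it tested higher. Plxnb2 and Plxnd1 were much more abundant than Plxna2. Plxnb2 had 118 FPKM in the libraries labelled ERMAP shRNA and 111 FPKM in control (log2 fold change 0.09, SE 0.12, edgeR adjusted p = 0.949). Plxnd1 had 50.2 FPKM and 54.0 FPKM in the same groups (log2 fold change -0.11, SE 0.16, edgeR adjusted p = 0.949). Without control replicate 1, edgeR called 2 genes of this list lower and 2 higher, where 2.19% and 2.67% of all genes tested in that fit were. They were Plxnd1 (-0.28, edgeR adjusted p = 0.0137) and Sema5a (-0.29, edgeR adjusted p = 0.0124) below control, and Plxnc1 (0.47, edgeR adjusted p = 0.00103) and Sema4c (0.71, edgeR adjusted p = 0.0166) above it, named, other than Plxnd1, after their values were seen. Sema6a, a class 6 semaphorin that binds plexin A2, had no count, and Sema6b, another (both named after their values were seen), had 17.5 FPKM in the libraries labelled ERMAP shRNA and 16.3 FPKM in control. The gene DESeq2 called higher was Sema4c (named after its values were seen), counted 122, 176 and 132 times in the libraries labelled ERMAP shRNA and 61, 101 and 90 times in control (log2 fold change 0.86, SE 0.21, edgeR adjusted p = 0.165). With GC offsets Sema4c was called higher as well (log2 fold change 0.80, edgeR adjusted p = 0.0401), where 2.03% of all genes tested were. Of 10 tested genes of plexin signalling edgeR called 0, 0 at an unadjusted p under 0.05 and 0 in DESeq2. Rac1, a small GTPase, had 91.0 FPKM in the libraries labelled ERMAP shRNA and 85.3 FPKM in control, and Rap1b, another, 79.0 FPKM and 85.6 FPKM.

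The genes next to the members on the chromosomes were compared too. For each member the nearest tested gene on either side was taken, 14 in all. edgeR called 0 of them, where 1.01% and 0.136% of all genes tested were called higher and lower. A count of 0 of 14 is close to those shares, so nothing is read from it. At an unadjusted p under 0.05 there were also 0 (3.71% and 3.04% of all genes tested), and DESeq2 called 0. Their log2 fold changes ran from -0.21 (Mindy4, beside Aqp1) to 0.26 (Traf3ip3, beside Plxna2). Without control replicate 1, Exoc6, beside Myof, was called higher, where 2.67% of all genes tested in that fit were. Blmh and Nsrp1 flank Slc6a4 at 11224 and 11952 bases and had log2 fold changes of -0.19 (SE 0.12) and -0.08 (SE 0.14), with edgeR adjusted p = 0.923 and 0.952. St3gal4 lies 9860 bases from Kirrel3 and had a log2 fold change of 0.10 (SE 0.13, edgeR adjusted p = 0.946). Cep55 lies 11448 bases from Myof, at -0.12 (SE 0.15, edgeR adjusted p = 0.944). Some neighbours are far off, the farthest 1416515 bases from Plxna2.

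**Figure D5:**
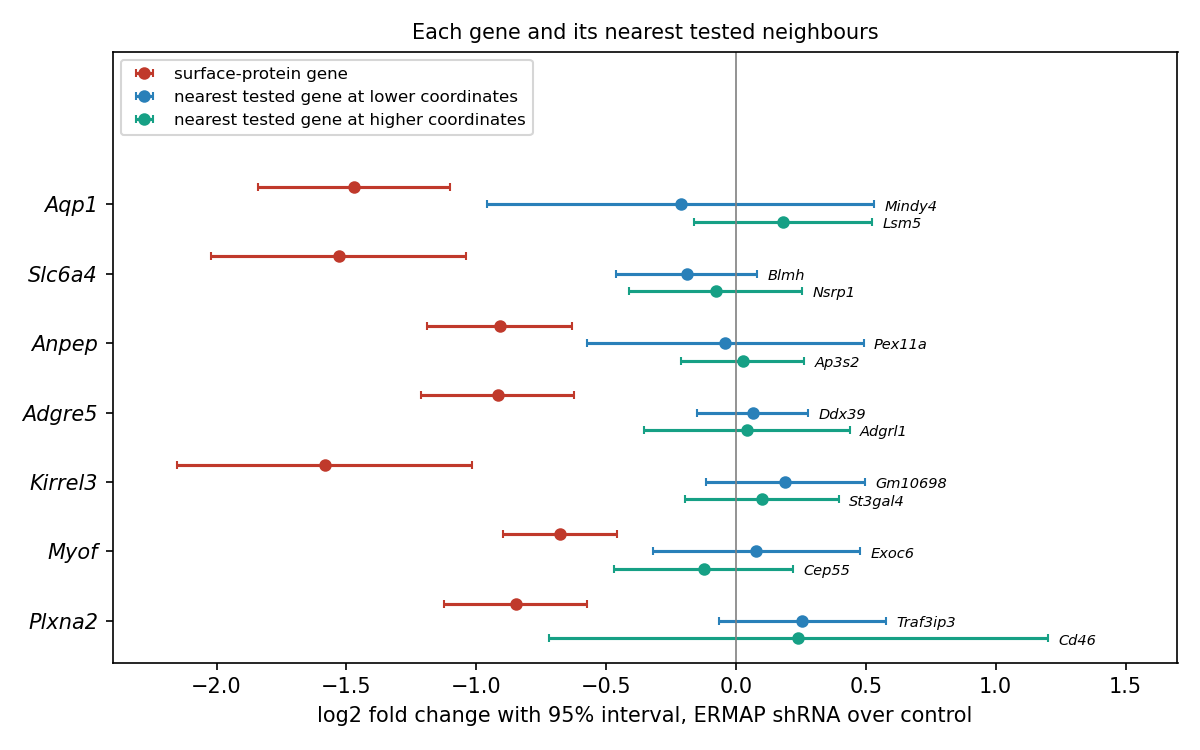
Log2 fold change with 95% interval, libraries labelled ERMAP shRNA over control, of each member (red) and of the nearest tested gene at lower (blue) and higher (green) coordinates. All 14 neighbour intervals include 0, and the 7 member intervals lie below 0.

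Other genes followed the average pattern of the members across the 6 libraries. Of 9377 protein-coding genes with a mean of at least 5 CPM, 41 had a Pearson r of at least 0.95 with the mean of the members' standardised levels. This is a description over 6 points that share libraries and scaling and fall into 2 groups, so r mostly follows the group difference. Highest were Capn2 (r = 0.997), Ppm1l, a protein phosphatase (r = 0.997), Pxmp4, a peroxisomal membrane protein (r = 0.991), Acp5, the tartrate-resistant acid phosphatase (r = 0.991), and Rab31, a small GTPase of vesicle traffic (r = 0.988). Of these 5, edgeR called Acp5 alone, counted 27, 30 and 26 times in the libraries labelled ERMAP shRNA and 104, 175 and 150 times in control. Rab31 differed far less than the members, with 291, 287 and 293 CPM in the libraries labelled ERMAP shRNA and 334, 339 and 332 CPM in control (log2 fold change -0.21, edgeR adjusted p = 0.587).

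Of the osteoclast markers, Acp5 and Atp6v0d2, a proton pump subunit, were lower beside the members. The 8 osteoclast markers summed to 243 to 276 CPM in the libraries labelled ERMAP shRNA and 372 to 402 CPM in control, most of it Nfatc1, a transcription factor of osteoclast formation (212 CPM and 306 CPM). edgeR called these 2 of the 6 tested lower, where 0.136% of all genes tested were, and 5 without control replicate 1, where 2.19% were. DESeq2 called 4 lower of 7 (0.378% of all genes) and the fit with GC offsets 5 of 6 (1.03%). Nfatc1 did not pass in edgeR over all 6 libraries (log2 fold change -0.53, adjusted p = 0.0527), Ctsk, cathepsin K, overlapped between groups, and Calcr, the calcitonin receptor that mature osteoclasts carry, had no count in any library. Their part in the members' result was not tested. Markers of T cells, B cells, neutrophils, dendritic cells, mast cells, fibroblasts, epithelium, endothelium, erythroid cells and platelets summed to at most 2.70 CPM in any library.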

How the data were processed

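For each gene and library the authors deposited a whole-number read count and an FPKM value, and a mean FPKM per group. HISAT2 and the build mm10 are named per the submitters' processing notes. For the counting program, its strand setting, the annotation release and tool versions, the sources used here give nothing. The deposited FPKM equals the count over gene length and 1 constant per library, and the deposited group means equal the column means. All 7 members have the same coordinates in GENCODE vM21. Column names give the group and a number, which is used as the replicate number but could not be tied to single samples.

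Counts were tested over 12491 genes with edgeR 4.0.16 (limma 3.58.1, R 4.3.3): TMM factors, filterByExpr at a minimum count of 10, robust quasi-likelihood test, Benjamini-Hochberg adjustment, called at an adjusted p under 0.05. CPM are counts scaled to the TMM-adjusted library total. The procedure was tested on simulated data. The members, gene lists, motifs and alternatives (DESeq2 1.42.0, limma-voom, limma-trend on FPKM, GC offsets and others) were chosen with earlier results of these data known. By rule, the named relatives are the 2 most abundant tested genes of each list and any called by edgeR over all 6 libraries (0 were); other relatives, those with no count included, were named after their values were seen; neighbours were taken by position. No pair of replicates agreed within sampling noise.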

Additional observations from a re-analysis of the deposited data

How the results depend on the processing

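The members were selected on this comparison, so their calls under other settings describe the same values and support nothing. The direction of each of the 7 members was the same in every alternative that gave it a value. All 7 were called lower with other scaling factors, DESeq2, limma-voom, GC offsets, limma-trend on log2(FPKM + 1) and either other filter, and 6 on log2(FPKM + 0.1), where Plxna2 was not (adjusted p = 0.0621). On log2(FPKM + 1) with no filter, 2 were called (Aqp1 and Myof). Aqp1 alone, 1 of 7, was called at an adjusted p under 0.01, by glmTreat against 1.5-fold and with the replicate block. Leaving out 1 library gave 1 to 7 members called, 7 without control replicate 1, 5 without control replicate 2, 1 without control replicate 3, and 2, 2 and 1 without labelled replicates 1, 2 and 3. Against 17 genes called lower, DESeq2 gave 58, GC offsets 129, no filter on low counts 32, unfiltered log2(FPKM + 1) 9, glmTreat 4, the threshold of 0.01 3 and leaving out 1 library 3 to 280 (280 without control replicate 1). Against 126 called higher, GC offsets gave 253, an adjusted p under 0.01 82, glmTreat 80 and leaving out 1 library 73 to 342 (342 without control replicate 1). Against 0 relatives called higher and 0 lower, DESeq2 gave 1 and 4, GC offsets 2 and 5, unfiltered log2(FPKM + 1) 0 and 1, and leaving out 1 library 0 to 4 and 0 to 7 (4 and 7 without control replicate 1). The replicate block gave 81 genes higher and 3 lower. The deviations of same-numbered libraries correlated at -0.187, -0.383 and 0.266, and those of differently numbered libraries at -0.356 to 0.446. With 3 libraries per group, these values cannot decide whether the numbers pair the samples. Stricter thresholds lower a count by construction; otherwise the cause was not tested. The common dispersion was 0.0233 with all libraries and 0.0045 without control replicate 1. Kirrel3 and Slc6a4, with 27 to 50 counts per library in the labelled group, had the largest counting error of the members. The observed coefficient of variation exceeded it for Slc6a4 in the labelled group (23.6% against 15.4%). It also did for Kirrel3 in control (20.1% against 10.1%). In the other group of each gene it was nearer to counting error.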

Other observations

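Within the groups, the deviations of the 7 genes were compared in pairs. After the group means were removed, the deviations on log2(CPM + 1) had a median Pearson r of -0.117 over the 21 pairs of members, with 9 pairs above 0, from -0.933 for Aqp1 with Myof to 0.677 for Adgre5 with Myof. These are descriptions over 6 libraries, from which the group means have already been taken. Counting error alone is 15.4% for Slc6a4 and 18.2% for Kirrel3 in the labelled group. The values therefore cannot show whether the members vary together. The genes whose deviations followed the members' average most closely were Rfxank, a regulator of MHC class II genes (r = 0.996), Psme2, a proteasome activator (r = 0.991), and Smarcal1, a DNA annealing helicase (r = 0.985). They were picked as the highest of 9377 genes compared, of which 31 had an r of at least 0.95, so nothing is read from them. None of these 3 was called by edgeR between the groups (adjusted p from 0.861 to 0.959), and each had an unadjusted p over 0.05.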
